A study of Mus musculus with 24 samples.

Results

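The genes described are 7 mouse genes for receptors of the antibody Fc region and their partners: Fcgr1, Fcgr3, Fcgr4, Fcer1g, Fcgr2b, Fcgrt and Fcrlb. They were taken by gene symbol from 49022 genes that 2 deposited count tables share by Ensembl ID, and all 7 passed the filter on low counts in every comparison. RNA was sequenced from sorted lung macrophages in 24 libraries, 3 for each of 8 groups. CD11b+ SiglecF- cells are called interstitial macrophages (IMs) and CD11b- SiglecF+ cells alveolar macrophages (AMs). Bleomycin, a drug that injures the lung, was given into the trachea at 3 µg per g of body weight, and control mice received PBS. The wild-type groups (C57BL/6J) were IMs at day 7 after bleomycin and IMs at day 7 after PBS. The other 6 groups came from Spp1-EGFP knock-in (KI) reporter mice, in which EGFP reports Spp1, the osteopontin gene. Bleomycin-treated reporter mice gave EGFP+ IMs on days 14 and 7, EGFP- IMs on day 7, and EGFP+ AMs on days 14 and 30. PBS-treated reporter mice gave EGFP+ AMs on day 7. Whether the knock-in is on 1 or both alleles, and its strain background, are not given in the sources used here. All reporter groups carry it, so the genotype is shared within the reporter comparisons and not with the wild-type groups. How many animals gave a library is not given in the sources used here, so p-values measure the spread between these libraries, which may be technical.

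Fc receptors let macrophages bind antibody-coated particles and immune complexes. In the mouse, the activating receptors FcγRI (Fcgr1), FcγRIII (Fcgr3) and FcγRIV (Fcgr4) bind IgG and signal through the common γ chain (Fcer1g), which carries an activation motif that recruits the kinase Syk. FcγRIIb (Fcgr2b) binds IgG too, but carries an inhibitory motif in its own tail that recruits the lipid phosphatase SHIP1 (Inpp5d). The neonatal receptor FcRn (Fcgrt) pairs with β2-microglobulin (B2m) and returns IgG and albumin from endosomes, and Fcrlb encodes an intracellular protein related to Fc receptors, known from B cells.

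Depth was 13450053 to 24580620 counts per library. Siglecf, which encodes SiglecF, was at 2.43 to 25.7 CPM (counts scaled to a common library total) in IM libraries and 108 to 428 CPM in AM libraries. Itgam, the CD11b gene, stood at 151 to 406 CPM in IM libraries and at only 5.65 to 30.9 CPM in AM libraries, so both followed the gates. Spp1 stood at 3554 to 4738 CPM in EGFP+ IMs at day 7, against 449 to 552 CPM in EGFP- IMs. In EGFP+ AMs after PBS it was only 191 to 209.6 CPM, against 3704 to 6411 CPM at day 14 and 6733 to 6978 CPM at day 30 after bleomycin. The day 14 IMs and the day 14 and day 30 AMs are in one table and all other groups in the other, so a comparison that spans both cannot tell table and group apart. The tables differ in some gene models: the row of Lilrb4a, an inhibitory receptor gene, held 12554 to 51206 counts in the libraries of one table and 0 in every library of the other. The 7 genes have the same coordinates in both tables.

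Of the members, 5 lie in one stretch of chromosome 1 (GRCm38, 170907273 to 171234365), in the order Fcrlb, Fcgr2b, Fcgr4, Fcgr3 and Fcer1g. Fcrlb (ENSMUSG00000070524) spans 170907273 to 170912941 and Fcgr2b (ENSMUSG00000026656) 170958617 to 170976547, both on the minus strand. Fcgr4 (ENSMUSG00000059089) spans 171018920 to 171029761 on the plus strand. Fcgr3 (ENSMUSG00000059498) spans 171051174 to 171064935 and Fcer1g (ENSMUSG00000058715) 171229572 to 171234365, both on the minus strand. Fcgr1 (ENSMUSG00000015947) is on chromosome 3, 96282909 to 96293969, and Fcgrt (ENSMUSG00000003420) on chromosome 7, 45092990 to 45103851, both on the minus strand.

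Promoter sequences are shown for Fcrlb and Fcgr1, with the largest rises after bleomycin in wild-type IMs, and for Fcgr4, the single member that fell there. Each is the 250 bases before the RefSeq start site on GRCm38.p6, 5′ to 3′ on the gene's strand: chr3:96293970-96294219 (minus) for Fcgr1, chr1:171018676-171018925 (plus) for Fcgr4 and chr1:170912942-170913191 (minus) for Fcrlb. Capitals mark matches to 3 motifs searched on both strands: TTCNNNGAA (the GAS site bound by STAT proteins), GAAA, any 2 bases and GAAA (the core of the interferon-stimulated response element, ISRE) and GAGGAA (the core bound by PU.1, a myeloid factor).
Fcgr1: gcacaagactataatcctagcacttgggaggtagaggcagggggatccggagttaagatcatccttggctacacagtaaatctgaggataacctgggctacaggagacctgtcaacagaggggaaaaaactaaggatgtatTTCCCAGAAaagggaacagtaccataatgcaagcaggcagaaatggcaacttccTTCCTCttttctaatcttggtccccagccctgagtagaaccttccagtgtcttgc
Fcgr4: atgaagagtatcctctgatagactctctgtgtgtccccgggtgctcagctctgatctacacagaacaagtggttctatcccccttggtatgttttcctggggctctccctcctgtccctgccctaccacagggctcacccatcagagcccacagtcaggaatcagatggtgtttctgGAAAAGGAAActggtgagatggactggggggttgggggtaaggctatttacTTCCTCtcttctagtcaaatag
Fcrlb: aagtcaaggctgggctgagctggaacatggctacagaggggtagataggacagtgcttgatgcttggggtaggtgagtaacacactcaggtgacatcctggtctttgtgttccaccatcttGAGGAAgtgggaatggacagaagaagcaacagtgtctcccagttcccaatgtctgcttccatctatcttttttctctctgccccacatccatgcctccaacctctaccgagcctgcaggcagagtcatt
The Fcgr1 window held a GAS match at position -109 from the start site, counted from its first base, and a PU.1 core at -55. The Fcgr4 window held an ISRE match at -73 and a PU.1 core at -22, and the Fcrlb window held a PU.1 core at -129. No match was found in the windows of Fcgr2b, Fcer1g and Fcgrt, and that of Fcgr3 held a PU.1 core. Among 32851 RefSeq promoter windows of the same length, 7.02% held the GAS pattern, 2.98% the ISRE pattern and 23.3% the PU.1 core. A match is a description of these letters and not evidence of binding.

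Fcgr2b and Fcgr3 are close copies in part: their coding sequences were 96.5% identical over 509 aligned bases, with an identical run of 129 bases. Of the 50-base windows of Fcgr3 transcripts, 9.58% also occur in Fcgr2b, as do 2.54% of those of 100 bases and 0 of those of 150 bases. Of Fcgr2b windows, 4.38% of those of 50 bases and 1.4% of those of 100 bases also occur in other genes, Fcgr3 among them. The read length is not given in the sources used here, and reads over such shared stretches could be split between the pair or dropped. The strand setting of the counting is not given in the sources used here, so reads cannot be told apart from those of overlapping genes such as Gm38204, which lies opposite Fcgr2b and had a group mean of at most 0.714 CPM, and Gm45669, which lies opposite Fcgrt.

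Levels between genes are compared per kilobase of exon. On that scale the γ chain gene Fcer1g was the highest member in all 8 groups, with group means of 495 to 686 CPM per kb. Fcgr3 was second in all 8, with group means of 135 to 517 CPM per kb. Fcgr2b had 123 CPM per kb in wild-type IMs after bleomycin and 33.5 after PBS, and Fcgr1 82.2 and 14.2. Fcgr4 had 50.6 CPM per kb in wild-type IMs after bleomycin, below Fcgr2b and Fcgr1, and 86.2 CPM per kb after PBS, above both. Fcgrt came after Fcer1g and Fcgr3 in AMs after PBS, at 185 CPM per kb, and Fcrlb was the lowest member in 6 of 8 groups, with Fcgrt below it in the EGFP+ and EGFP- IMs of day 7.

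**Figure D1:**
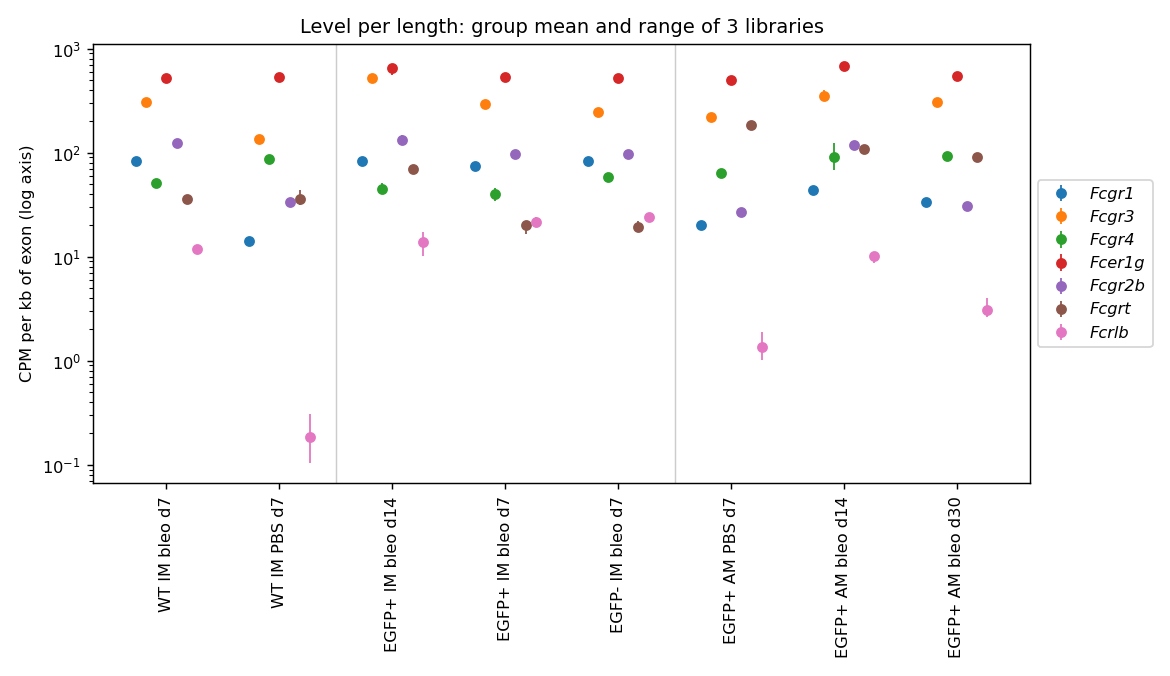
Level of each Fc receptor gene in CPM per kb of exon on a log axis, as the mean of 3 libraries (point) and their range (bar), in the 8 groups. Fcer1g and Fcgr3 are the top points in every group, and Fcrlb spans from 0.185 in PBS-treated wild-type IMs to 23.8 in EGFP- IMs.

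In wild-type IMs, day 7 libraries after bleomycin were set against those after PBS. The receptor genes did not move together: FcγRI, FcγRIII and inhibitory FcγRIIb transcripts rose, FcγRIV transcripts fell, and neither the shared γ chain nor FcRn passed the test. Fcrlb, nearly absent after PBS, was present in every library after bleomycin. Of the 7 members, 4 rose and 1 fell. The background was high, since 70.2% of 15496 genes tested were called (35.6% higher and 34.5% lower), so the count of members is near that share.

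**Figure D2:**
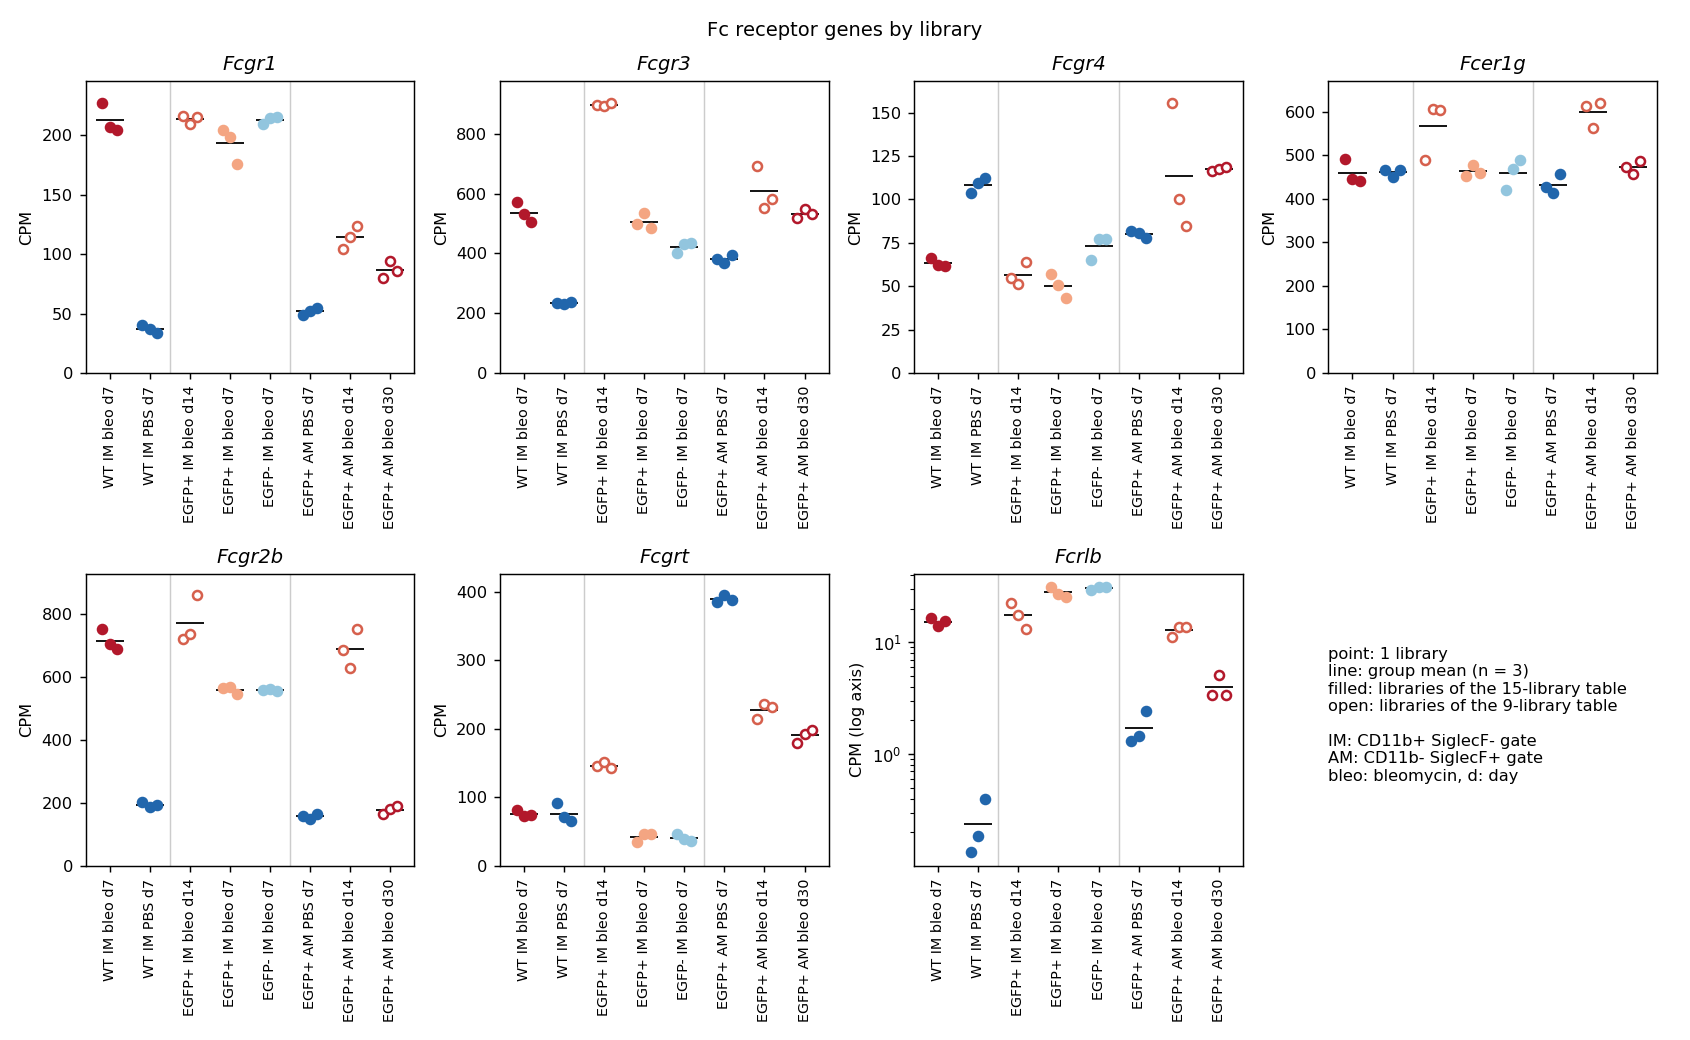
CPM of each Fc receptor gene in each library (points) with the group mean (line, n = 3), by group, on a linear axis except for Fcrlb, which has a log axis. Filled and open points are libraries of the 2 deposited tables. Fcgr1, Fcgr3, Fcgr2b and Fcrlb are higher in bleomycin-treated than in PBS-treated wild-type IMs without overlap, and Fcgr4 is lower.

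Among the activating receptors, Fcgr1, the high-affinity IgG receptor gene, had 227, 207 and 205 CPM in bleomycin-treated IMs, against 40.3, 36.7 and 33.3 CPM in PBS-treated IMs. The groups were far apart, and the gene rose 5.61-fold (log2 fold change 2.49 ± 0.07 SE, edgeR adjusted p = 2.82e-18). Fcgr3, which encodes FcγRIII, a receptor of lower affinity for immune complexes, had 571, 533 and 504 CPM after bleomycin, against 233, 232 and 237 CPM after PBS. It rose 2.22-fold (log2 fold change 1.15 ± 0.05 SE, edgeR adjusted p = 1.16e-14), again without overlap. Fcgr4, which encodes FcγRIV, known in the mouse from neutrophils and nonclassical monocytes as well as macrophages, had 66.3, 62.5 and 61.8 CPM after bleomycin, against 103.5, 109 and 112 CPM after PBS. All 3 bleomycin libraries were below all PBS libraries, a 1.76-fold fall (log2 fold change -0.82 ± 0.06 SE, edgeR adjusted p = 3.5e-11). In bulk RNA, fewer cells of a type and less RNA per cell cannot be told apart.

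The γ chain gene Fcer1g had 492, 445 and 441 CPM in bleomycin-treated IMs and 466, 451 and 466 CPM in PBS-treated IMs. The groups overlapped, and the log2 fold change of -0.05 had a 95% interval of -0.16 to 0.06 (edgeR adjusted p = 0.399). The reads of Fcgr1 per read of Fcer1g were 0.463 ± 0.001 after bleomycin and 0.0798 ± 0.0076 after PBS (SD, n = 3 each). For Fcgr4 the same ratio was 0.138 ± 0.003 after bleomycin and 0.235 ± 0.011 after PBS.

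The inhibitory receptor gene Fcgr2b had 751, 705 and 687 CPM in bleomycin-treated IMs, against 202.5, 186 and 194 CPM in PBS-treated IMs. The groups did not overlap, and the gene rose 3.56-fold (log2 fold change 1.83 ± 0.05 SE, edgeR adjusted p = 2.64e-18). Reads of an activating receptor over those of Fcgr2b in the same library need no scaling between libraries. These ratios are not scaled by exon length, so they are compared between groups and 1 does not mark equal levels. Fcgr3 over Fcgr2b was 0.733 to 0.761 after bleomycin, against 1.15 to 1.25 after PBS. Fcgr4 over Fcgr2b was 0.0883 to 0.0901 after bleomycin, against 0.511 to 0.587 after PBS. Fcgr1 over Fcgr2b went the other way, with 0.293 to 0.303 after bleomycin and 0.172 to 0.199 after PBS. The balance between activating and inhibitory transcripts thus differed in direction by receptor, and for none of the 3 ratios did the groups overlap.

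**Figure D3:**
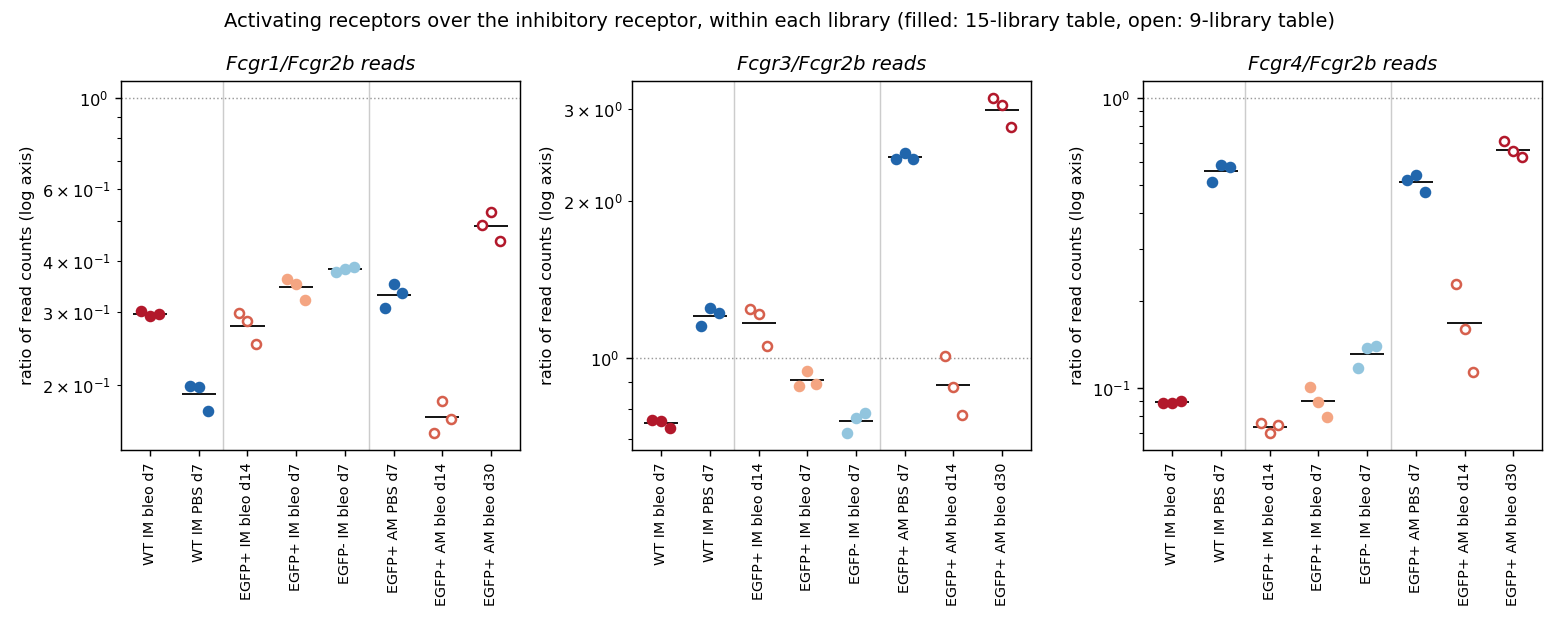
Reads of Fcgr1, Fcgr3 and Fcgr4 over reads of Fcgr2b in each library (points, log axes) with the group mean (line, n = 3), in the 8 groups. Fcgr3 over Fcgr2b is lower in bleomycin-treated than in PBS-treated wild-type IMs. In AMs it dips to a mean of 0.889 at day 14 between 2.43 after PBS and 3.00 at day 30. Ratios are not scaled by exon length (1736 bases for Fcgr3, 5790 for Fcgr2b), so 1 does not mark equal levels.

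Fcgrt, the FcRn gene, had 81.4, 72.7 and 73.8 CPM in bleomycin-treated IMs and 91.4, 70.8 and 65.2 CPM in PBS-treated IMs, with overlap (log2 fold change -0.04, 95% interval -0.31 to 0.22, edgeR adjusted p = 0.767). Fcrlb had 16.5, 13.9 and 15.4 CPM after bleomycin (273, 248 and 248 counts), against 0.132, 0.183 and 0.396 CPM after PBS (2, 3 and 6 counts). It passed the filter on low counts through the bleomycin group. The fitted log2 fold change was 5.92 ± 0.26 SE (edgeR adjusted p = 3.35e-15), a 60.7-fold rise whose size rests on these few PBS counts.

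The rest of the pathway showed no single direction in wild-type IMs. Of 9 other Fc receptor genes tested, 1 rose and 6 fell (median log2 fold change -1.32, against 0.00 over all genes tested). Fcrl1, a B cell receptor related to Fc receptors, had 9.55 ± 0.65 CPM after bleomycin and 30.9 ± 2.3 CPM after PBS (SD, n = 3 each). Pigr, the epithelial receptor for polymeric immunoglobulin, had 0.279 CPM after bleomycin and 11.2 CPM after PBS. Of 25 proximal signalling genes, 10 rose and 13 fell (median -0.15), with Syk, the kinase that binds the γ chain, at 536 CPM after bleomycin and 1287 CPM after PBS (log2 fold change -1.31 ± 0.05 SE, edgeR adjusted p = 3.87e-16). Of 8 inhibitory phosphatases and adaptors, 4 rose and 2 fell (median 0.15), with the adaptor Dok2 at 115 CPM after bleomycin and 32.8 CPM after PBS. Pag1, of the same list, went the other way, with 113 CPM after bleomycin and 220 CPM after PBS. Of 9 other receptors with inhibitory motifs, 4 rose and 4 fell. Of 6 genes for Tyrobp and receptors that can pair with the γ chain, 1 rose and 4 fell. The one that rose, Clec4n, which encodes the fungal receptor Dectin-2, had 321 CPM after bleomycin and 54.1 CPM after PBS (log2 fold change 2.52 ± 0.06 SE, edgeR adjusted p = 4.26e-20). Downstream, 6 rose and 7 fell of 18 phagocytic cup and actin genes, and 2 rose and 3 fell of 5 NADPH oxidase genes. Of 6 genes for the FcRn light chain and recycling, 2 rose and 3 fell. Of 16 interferon-γ pathway genes, 9 rose and 6 fell (median 0.52), with the guanylate-binding protein gene Gbp7 at 49.9 CPM after bleomycin and 11.4 CPM after PBS.

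Markers of other cells moved with this comparison. All 10 neutrophil markers fell, with a summed level of 1706 to 1798 CPM in bleomycin libraries and 7807 to 9240 CPM in PBS libraries. All 9 nonclassical monocyte markers fell as well, with sums of 1834 to 1995 CPM after bleomycin and 5281 to 5845 CPM after PBS. They moved in the direction of Fcgr4, and their part in its fall was not tested. All 7 B cell markers fell (202 to 247 CPM after bleomycin, 753 to 862 CPM after PBS), opposite to Fcgr2b and Fcrlb, both known from B cells, and their part was not tested either. All 7 NK cell markers rose, and of mast cell and basophil markers 1 rose and 7 fell of 8. Of lung epithelial markers 1 rose and 8 fell of 9, with sums of 60.0 to 86.6 CPM after bleomycin and 4327 to 6420 CPM after PBS. Their part was not tested. Of 6 macrophage markers 5 rose and 1 fell, of 8 AM markers 2 rose and 5 fell, and of 8 classical monocyte markers 4 rose and 4 fell. Of 7 dendritic cell markers 1 rose and 3 fell, of 7 T cell markers 1 rose and 3 fell, of 7 endothelial markers 5 fell, and both eosinophil markers tested fell.

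**Figure D4:**
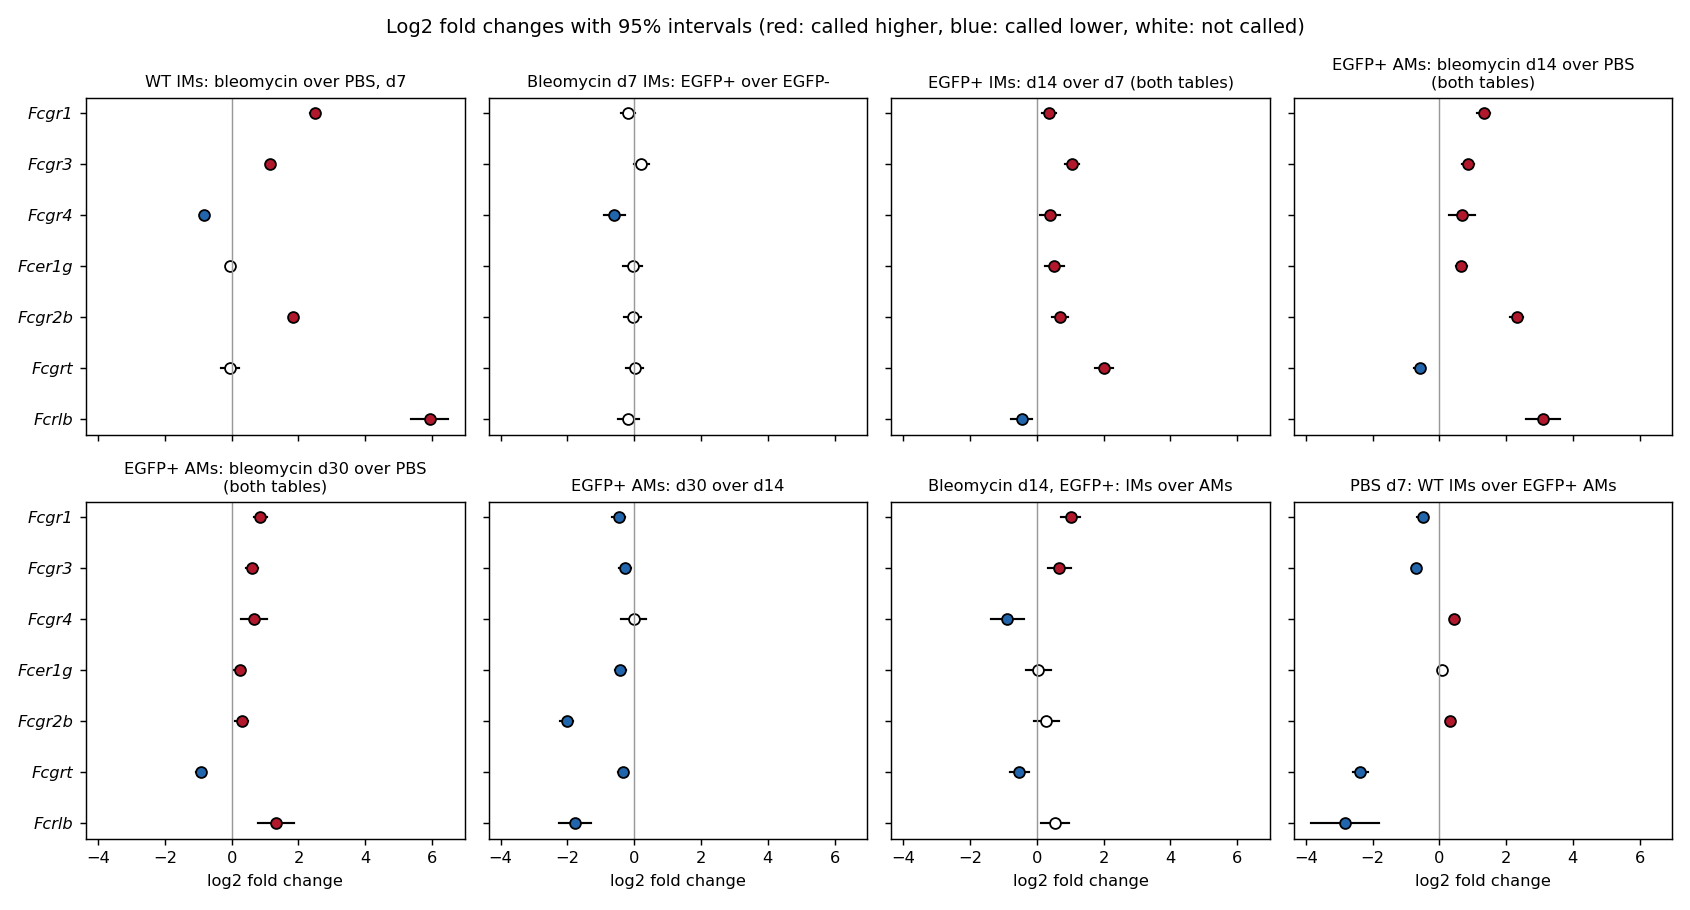
Log2 fold change of each Fc receptor gene (point) with its 95% interval (bar) in 8 comparisons. Red and blue points passed the test as higher and lower and white points did not pass. Fcer1g stays within 0.66 of 0 in every panel, whereas Fcrlb runs from -2.82 to 5.92.

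EGFP+ and EGFP- IMs share gate, genotype, treatment and day and differ in the reporter sort. FcγRIV transcripts were lower in EGFP+ IMs, and no other receptor gene passed the test. The count of 1 of 7 members called, lower, stands beside 34.8% of 14967 genes tested (17.2% higher and 17.6% lower). Fcgr4 had 57.1, 50.6 and 43.2 CPM in EGFP+ IMs, against 65.3, 77.1 and 77.1 CPM in EGFP- IMs. The groups did not overlap, and the gene was 1.51-fold lower (log2 fold change -0.59 ± 0.14 SE, edgeR adjusted p = 0.00698). All 10 neutrophil markers (summed 2094 to 2880 CPM in EGFP+ IMs, 4859 to 6370 CPM in EGFP- IMs) and 4 of 9 nonclassical monocyte markers (1053 to 1184 CPM in EGFP+ IMs, 1506 to 1536 CPM in EGFP- IMs) were lower too, as were 4 of 8 classical monocyte markers, with 1 higher, and 4 of 7 dendritic cell markers. Of 6 macrophage markers 5 were higher, and of 8 AM markers 6 were higher. Their part in the difference was not tested.

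Fcgr3 had 499, 534 and 486 CPM in EGFP+ IMs, against 400.0, 431 and 435 CPM in EGFP- IMs. All EGFP+ libraries were above all EGFP- libraries, but the log2 fold change of 0.21 ± 0.10 SE was not past the test (edgeR adjusted p = 0.121). It passed in a fit of these 2 groups alone (adjusted p = 0.00354). The ratio of Fcgr3 to Fcgr2b reads was 0.882 to 0.945 in EGFP+ IMs and 0.718 to 0.784 in EGFP- IMs, without overlap. Fcgr2b itself was nearly level, with 565, 566 and 546 CPM in EGFP+ IMs and 557, 561 and 555 CPM in EGFP- IMs (log2 fold change -0.05, 95% interval -0.29 to 0.20). Fcgr1 had 204, 199 and 176 CPM in EGFP+ IMs and 209, 214 and 215 CPM in EGFP- IMs (log2 fold change -0.19, 95% interval -0.40 to 0.01, edgeR adjusted p = 0.138). For Fcer1g, Fcgrt and Fcrlb the intervals were -0.33 to 0.25, -0.24 to 0.28 and -0.49 to 0.13. With 3 libraries each, the data are compatible with differences within those bounds.

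In the pathway lists, 8 of 25 proximal signalling genes were lower in EGFP+ IMs and 2 higher, and 9 of 16 interferon-γ pathway genes were lower and 0 higher (median log2 fold change -0.75, against -0.02 over all genes tested). The kinase gene Jak2, which relays the interferon-γ signal, had 262 CPM in EGFP+ IMs and 528 CPM in EGFP- IMs (log2 fold change -1.06 ± 0.09 SE, edgeR adjusted p = 4.21e-05). Clec4e, which encodes Mincle, a γ-chain-coupled receptor for mycobacterial glycolipid, had 1091 CPM in EGFP+ IMs and 1866 CPM in EGFP- IMs.

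EGFP+ IMs of day 14 were compared with those of day 7, across the 2 tables. Fcgr3, Fcgr2b, Fcer1g and Fcgrt transcripts were higher at day 14, the last by the largest factor of the members. In all, 6 members rose and 1 fell, where 52.2% of 14967 genes were called (25.3% higher and 26.9% lower). With library totals as the only scaling, the median of all genes moved by -0.22 and the rises of Fcgr1 and Fcgr4 were not past the test (adjusted p = 0.202 and 0.277). Fcgr3 had 895, 893 and 904 CPM at day 14, against 499, 534 and 486 CPM at day 7, a 2.07-fold rise (log2 fold change 1.05 ± 0.10 SE, edgeR adjusted p = 8.42e-06). Fcgrt had 145, 151 and 142 CPM at day 14, against 34.4, 46.7 and 45.9 CPM at day 7. This 4.03-fold rise (log2 fold change 2.01 ± 0.12 SE, edgeR adjusted p = 2.18e-07) left no overlap.

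Fcgr2b had 721, 735 and 858 CPM at day 14, against 565, 566 and 546 CPM at day 7 (log2 fold change 0.69 ± 0.11 SE, edgeR adjusted p = 0.000384). Fcer1g had 489.9, 607 and 605 CPM at day 14, against 452, 479 and 459 CPM at day 7 (log2 fold change 0.52 ± 0.13 SE, edgeR adjusted p = 0.0057). In both genes every day 14 library was above every day 7 library. Fcgr1 had 216, 209.6 and 215 CPM at day 14 and 204, 199 and 176 CPM at day 7 (log2 fold change 0.37 ± 0.09 SE, edgeR adjusted p = 0.00626), without overlap. For Fcgr4 the groups overlapped in CPM, at 54.7, 51.4 and 63.8 CPM on day 14 and 57.1, 50.6 and 43.2 CPM on day 7 (log2 fold change 0.40 ± 0.14 SE, edgeR adjusted p = 0.031). Its call was lost without day 7 replicate 2 (adjusted p = 0.0724), day 7 replicate 3 (0.131) or day 14 replicate 3 (0.15). Fcrlb fell to 22.4, 17.4 and 13.04 CPM at day 14, against 31.2, 27.0 and 25.6 CPM at day 7 (log2 fold change -0.46 ± 0.15 SE, edgeR adjusted p = 0.0195), a call lost without day 7 replicate 1 (adjusted p = 0.0921). The 3 day 14 libraries also spread widely in macrophage markers, whose summed level ran from 17703 to 50063 CPM there and from 10492 to 14519 CPM at day 7. These sums take in all 6 macrophage markers, of which 3 have the same coordinates in both tables. Neutrophil markers were at 114 to 182 CPM at day 14 and 2094 to 2880 CPM at day 7, and all 7 dendritic cell markers and 4 of 7 B cell markers were lower at day 14. Their part in these changes was not tested.

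In EGFP+ AMs, one gate and genotype were followed from PBS at day 7 to days 14 and 30 after bleomycin. Under the same EGFP+ label, Spp1 was far lower after PBS than at either later time, as given above. The inhibitory receptor gene Fcgr2b peaked at day 14 and was near its PBS level at day 30, Fcgr1 and Fcgr3 stayed above PBS at both times, and Fcgrt was below PBS at both. At day 14, 6 members were higher than after PBS and 1 lower, where 54.9% of 14706 genes were called (27.3% higher and 27.6% lower). At day 30 the counts were again 6 higher and 1 lower, where 47.9% were called (24.8% higher and 23.1% lower). These comparisons share the PBS libraries and span both tables. From day 30 over day 14, which lie in one table, 0 members were higher and 6 lower, where 38.4% were called (19.6% higher and 18.7% lower).

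Fcgr2b had 158.0, 149 and 164 CPM after PBS, 684, 627 and 751 CPM at day 14 and 164, 179.7 and 191 CPM at day 30. Day 14 stood apart from both other groups (log2 fold change over PBS 2.32 ± 0.09 SE, edgeR adjusted p = 2.59e-12). Day 30 was 4.06-fold below day 14 (log2 fold change -2.02 ± 0.09 SE, edgeR adjusted p = 7.31e-11). Over PBS, day 30 was higher by a log2 fold change of 0.30 (edgeR adjusted p = 0.0111), lost without PBS replicate 2 (adjusted p = 0.0606), without day 30 replicate 3 (0.0684) and with library totals as the scaling (0.0771).

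Fcgr1 had 48.6, 52.2 and 54.9 CPM after PBS, 104, 114 and 124 CPM at day 14 and 80.1, 94.4 and 85.7 CPM at day 30. No 2 of these groups overlapped, with day 14 2.51-fold and day 30 1.81-fold above PBS (edgeR adjusted p = 3.27e-09 and 8.05e-07). Day 30 was lower than day 14 (log2 fold change -0.47 ± 0.09 SE, edgeR adjusted p = 0.000653). Fcgr3 had 380.0, 368 and 394 CPM after PBS, 691, 551 and 583 CPM at day 14 and 517, 549 and 531 CPM at day 30. It was 1.82-fold above PBS at day 14 and 1.51-fold at day 30 (edgeR adjusted p = 2.83e-07 and 2.05e-05). Its lower level at day 30 than at day 14 (log2 fold change -0.27, edgeR adjusted p = 0.0211) was lost without day 14 replicate 1 (adjusted p = 0.0645), day 30 replicate 1 (0.0757) or day 30 replicate 3 (0.0678).

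Fcgr4 had 82.0, 80.7 and 77.7 CPM after PBS, 156, 99.9 and 84.9 CPM at day 14 and 116, 117 and 119 CPM at day 30. The day 14 libraries spread from near the PBS level to above every day 30 library. Over PBS, the log2 fold change was 0.69 ± 0.17 SE at day 14 and 0.67 ± 0.17 SE at day 30 (edgeR adjusted p = 0.00618 and 0.00828). Between day 30 and day 14 it was -0.02 (edgeR adjusted p = 0.944), and without day 14 replicate 1 it was 0.28 (adjusted p = 0.00754). Among the alternatives that left out no single library it ran from -0.04 to 0.05 and never passed the test, so its sign is not settled. Fcer1g had 428, 414 and 457 CPM after PBS, 614, 563 and 621 CPM at day 14 and 474, 458 and 487 CPM at day 30. It was 1.58-fold above PBS at day 14 (edgeR adjusted p = 1.68e-06) and lower at day 30 than at day 14 (log2 fold change -0.41 ± 0.08 SE, edgeR adjusted p = 0.000411). At day 30 over PBS its log2 fold change was 0.24 (edgeR adjusted p = 0.0139). That call was lost without PBS replicate 1 (adjusted p = 0.0576), PBS replicate 2 (0.0777) or day 30 replicate 3 (0.0622), and with library totals as the scaling (0.143).

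Fcgrt had 384, 395 and 388 CPM after PBS, 214, 236 and 231 CPM at day 14 and 179.6, 193 and 198 CPM at day 30. No 2 groups overlapped. The gene was 1.51-fold below PBS at day 14 and 1.89-fold below at day 30 (log2 fold changes -0.59 ± 0.07 and -0.92 ± 0.07 SE, edgeR adjusted p = 3.15e-06 and 1.86e-08). Its light chain gene B2m moved the other way, with group means of 1558 CPM (PBS), 2333 CPM (day 14) and 2347 CPM (day 30) (log2 fold change over PBS 0.77 at day 14 and 0.71 at day 30, edgeR adjusted p = 1.18e-07 and 3.68e-07). Fcrlb had 1.30, 1.46 and 2.41 CPM after PBS (31, 36 and 44 counts), 11.2, 13.7 and 13.8 CPM at day 14 and 3.40, 5.10 and 3.35 CPM at day 30. The groups were apart, 8.63-fold above PBS at day 14 and 2.52-fold at day 30 (edgeR adjusted p = 1.15e-08 and 0.000359). Day 30 was below day 14 for Fcrlb (log2 fold change -1.78 ± 0.22 SE, edgeR adjusted p = 1.07e-05) and for Fcgrt (-0.33 ± 0.07 SE, edgeR adjusted p = 0.00205).

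Within each AM library, Fcgr3 reads over Fcgr2b reads were 2.41 to 2.48 after PBS, 0.777 to 1.01 at day 14 and 2.78 to 3.16 at day 30. Fcgr1 over Fcgr2b was 0.307 to 0.352 after PBS, 0.152 to 0.183 at day 14 and 0.449 to 0.525 at day 30. Fcgr4 over Fcgr2b was 0.475 to 0.543 after PBS, 0.113 to 0.228 at day 14 and 0.623 to 0.711 at day 30. For each of the 3 receptors the day 14 libraries lay below all others and the day 30 libraries above all others, so the inhibitory share of these transcripts was largest at day 14.

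In the lists, restricted to genes with the same coordinates in both tables, 9 of 13 interferon-γ pathway genes were above PBS at day 14 and 0 below, and 7 were above and 3 below at day 30. Of 8 other receptors with inhibitory motifs, 6 were above PBS at day 14 and 5 at day 30, with 0 below at either time. Lat2, an adaptor of Fc receptor signalling, averaged 6.91 CPM (PBS), 37.0 CPM (day 14) and 33.6 CPM (day 30) (log2 fold change over PBS 2.62 and 2.40, edgeR adjusted p = 6.48e-11 and 2.03e-10). Of 6 genes for Tyrobp and receptors that can pair with the γ chain, 5 were above PBS and 1 below at day 14. At day 30, 4 of them were above and 1 below. Clec4n, of this list, averaged 444 CPM (PBS), 1293 CPM (day 14) and 790.0 CPM (day 30). Lilra5, of the same list, went the other way at day 14, with 109 CPM, against 221 CPM after PBS (log2 fold change -0.83 ± 0.07 SE, edgeR adjusted p = 4.63e-08). All 7 B cell markers were below PBS at day 14, and they summed to 277 to 297 CPM after PBS, 93.4 to 119.8 CPM at day 14 and 232 to 249 CPM at day 30, opposite to Fcgr2b. The sums take in all listed genes. Of the markers tested, 8 of 9 neutrophil and 8 of 9 nonclassical monocyte markers have the same coordinates in both tables. Neutrophil markers summed to 109.6 to 186 CPM after PBS, 45.1 to 73.2 CPM at day 14, with Ly6g and Camp at 0, and 519 to 608 CPM at day 30. Nonclassical monocyte markers summed to 1701 to 1734 CPM after PBS, 1049 to 1482 CPM at day 14 and 1317 to 1356 CPM at day 30, lower where Fcgr4 was higher. Classical monocyte markers summed to 305 to 394 CPM after PBS, 586 to 698 CPM at day 14 and 485 to 571 CPM at day 30, in the direction of Fcgr1 and Fcgr2b. Of 8 such markers 3 were above PBS and 3 below at day 14, and Ccr2, a chemokine receptor gene of these cells, averaged 17.7 CPM (PBS), 319 CPM (day 14) and 77.6 CPM (day 30). All 7 T cell markers were above PBS at day 30. Of 9 AM markers, 5 were below PBS, like Fcgrt, and 1 above at day 14, with the same counts at day 30. AM markers summed to 16447 to 17965 CPM after PBS, 14139 to 24602 CPM at day 14 and 15055 to 16728 CPM at day 30. The part of these cells in the changes was not tested.

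At day 14, EGFP+ IMs and EGFP+ AMs of the same reporter line, treatment and table can be compared by gate. Fcgr1 and Fcgr3 transcripts were higher in IMs, and Fcgr4 and Fcgrt transcripts lower. That is 2 members higher and 2 lower, where 21% of 13460 genes were called (10.8% higher and 10.2% lower). Fcgr1 was 2.03-fold higher in IMs (log2 fold change 1.02 ± 0.13 SE, edgeR adjusted p = 0.000345), from the values above, without overlap. Fcgr3 had a log2 fold change of 0.68 ± 0.16 SE (edgeR adjusted p = 0.0109), a call lost without AM replicate 2 (adjusted p = 0.0635) or AM replicate 3 (0.0573). Fcgr4 had -0.88 ± 0.22 SE (edgeR adjusted p = 0.0218), lost without IM replicate 1 (0.0569) or IM replicate 2 (0.0831). Fcgrt had -0.52 ± 0.12 SE (edgeR adjusted p = 0.0134), lost without AM replicate 3 (0.0661). Fcgr2b (0.29, 95% interval -0.08 to 0.66), Fcer1g (0.04, -0.33 to 0.41) and Fcrlb (0.55, 0.14 to 0.96, edgeR adjusted p = 0.0606) were not past the test. Without IM replicate 3, Fcrlb passed it (0.69, adjusted p = 0.0173). All 9 AM markers were lower in IMs, with summed levels in IMs of 1517 to 3173 CPM, against 14139 to 24602 CPM in AMs. Of 8 classical monocyte markers 4 were higher and 0 lower (995 to 1391 CPM in IMs, 586 to 698 CPM in AMs), and of 7 neutrophil markers tested 5 were higher. Of 9 nonclassical monocyte markers 1 was higher and 3 lower (514 to 841 CPM in IMs, 1049 to 1482 CPM in AMs), their sums in the direction of Fcgr4. The part of these cells in the differences was not tested.

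Without injury, wild-type IMs and EGFP+ AMs after PBS differ in gate, genotype and EGFP sort together, which cannot be told apart. FcRn transcripts stood far apart. Fcgrt had 91.4, 70.8 and 65.2 CPM in PBS-treated IMs, against 384, 395 and 388 CPM in PBS-treated AMs, and was 5.15-fold lower in IMs (log2 fold change -2.36 ± 0.10 SE, edgeR adjusted p = 5.93e-09). Fcgr1 and Fcgr3 were lower in IMs too (log2 fold changes -0.50 and -0.71, edgeR adjusted p = 9.26e-06 and 2.26e-10), as was Fcrlb at its low counts (-2.82, edgeR adjusted p = 3.5e-05). Fcrlb had 2, 3 and 6 counts in IMs and 31, 36 and 44 in AMs. It passed the filter on low counts through the AM group, and the size of its difference rests on these few IM counts. Fcgr4 and Fcgr2b were higher in IMs (0.43 and 0.30, edgeR adjusted p = 1.62e-06 and 6.11e-05). Fcer1g was not past the test (0.09, edgeR adjusted p = 0.128). This makes 2 members higher and 4 lower, where 78.9% of 15828 genes were called (39.2% higher and 39.7% lower). All 10 neutrophil and all 9 nonclassical monocyte markers were higher in these IMs as well, as were 7 of 8 classical monocyte, 6 of 7 B cell and 7 of 7 T cell markers, and all 9 AM markers were lower. Of 9 lung epithelial markers 8 were higher and 1 lower (4327 to 6420 CPM in IMs, 313 to 326 CPM in AMs). Of 6 macrophage markers 1 was higher and 5 lower (10469 to 10758 CPM in IMs, 27295 to 28361 CPM in AMs). The part of these cells was not tested.

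Bleomycin effects in the 2 gates were set against each other in one fit of all libraries, as the effect in wild-type IMs at day 7 minus that in EGFP+ AMs at day 14. Day, genotype, sort and table differ between these effects and cannot be told apart from the gate. Fcgr4 went in opposite directions: its effect was -0.82 in IMs and 0.69 in AMs in the separate fits given above. In the fit of all libraries, the difference of -1.54 ± 0.22 SE passed the test (edgeR adjusted p = 6.62e-06). Fcgr1 and Fcrlb rose more in IMs, by 1.13 ± 0.13 and 2.77 ± 0.45 (edgeR adjusted p = 6.79e-08 and 1.37e-05). Fcgr2b and Fcer1g had smaller effects in IMs, by -0.52 ± 0.13 and -0.74 ± 0.14 (edgeR adjusted p = 0.00257 and 8.67e-05). Fcgrt differed by 0.52 ± 0.15 (edgeR adjusted p = 0.00674) and Fcgr3 by 0.25 ± 0.12 (edgeR adjusted p = 0.0989), which passed the test with library totals (0.52) and with no filter on low counts (0.36), and without any of 8 single libraries (0.33 to 0.45). Of 16687 genes tested, 39% passed in this comparison of effects (21.6% higher and 17.5% lower), and 3 members were higher and 3 lower. The median difference over all genes was 0.08. It was 0.20 with no filter on low counts and 0.17 to 0.19 in the 8 fits without a single library in which Fcgr3 passed. With library totals as the scaling the median was 0.35, and the difference of Fcgr2b was not past the test (-0.26, adjusted p = 0.0717). It also missed the test without AM day 14 replicate 3 (-0.33, adjusted p = 0.0537).

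Across the 8 groups, the ordering of levels differed by gene. Mean Fcgr1 was lowest in PBS-treated wild-type IMs (36.8 ± 3.5 CPM) and highest in EGFP+ IMs at day 14 (213 ± 3.3 CPM, SD, n = 3 each), 5.80 times as high. The 3 groups at the top, EGFP+ IMs of day 14, bleomycin-treated wild-type IMs and EGFP- IMs, overlapped with one another. Fcgr3 spanned 3.84 times, with the same lowest and highest groups, and EGFP+ IMs of day 14 stood alone at 897 ± 6.0 CPM. Fcgr2b was lowest in AMs after PBS (157 ± 7.7 CPM) and highest in EGFP+ IMs at day 14 (771 ± 75 CPM), 4.92 times as high, and neighbours overlapped at the top, where day 14 AMs, bleomycin-treated wild-type IMs and day 14 IMs followed each other.

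Fcgr4 spanned 2.34 times, from EGFP+ IMs of day 7 (50.3 ± 7.0 CPM) to AMs of day 30 (118 ± 1.2 CPM). Its 4 bleomycin IM groups overlapped with their neighbours in the order and all lay below the PBS-treated IMs and all AM groups. Fcer1g varied least, 1.38 times between AMs after PBS (433 ± 22 CPM) and AMs at day 14 (599 ± 32 CPM), and its 6 lower groups overlapped each with the next. Fcgrt was lowest in EGFP- and EGFP+ IMs of day 7 (40.5 ± 4.8 and 42.3 ± 6.9 CPM), which overlapped, and highest in AMs after PBS (389 ± 5.2 CPM), 9.60 times as high. Fcrlb was highest in EGFP- and EGFP+ IMs of day 7 (30.6 ± 0.9 and 27.9 ± 2.9 CPM), which also overlapped.

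Likeness of pattern was taken as Pearson's r of log2 CPM over the 24 libraries, among 11124 genes with the same coordinates in both tables. The libraries share groups and tables, so r is a description. Closest to Fcgr1 were Mdfic (0.967), Parvb (0.962) and Mrpl52 (0.959), and closest to Fcrlb were Mdfic (0.954), Fcgr1 (0.952) and Furin (0.951). Fcgr2b was most like Fam188a (0.944), Zfp667 (0.927) and Flrt3 (0.9), and Fcgrt most like Hadhb (0.969), Scp2 (0.968) and Nxt2 (0.964). For Fcgr3 the first was Psmb4 (0.97), for Fcer1g Bud31 (0.903) and for Fcgr4 Msrb1 (0.888). Between members, r was 0.878 for Fcgr1 with Fcgr2b, 0.736 for Fcgr1 with Fcgr3 and -0.53 for Fcgr1 with Fcgr4.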

How the data were processed

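The submitters' processing notes name GRCm38 and the tools HISAT2 2.1.0, featureCounts 1.6.3, SAMtools, Trimmomatic 0.38 and FastQC 0.11.5. Annotation release and strand setting are not given in the sources used here. The authors deposited raw read counts in 2 tables of 49585 and 55487 genes. These were joined by Ensembl ID. The shared genes hold at least 99.486% of each library, and 90.77% of them have the same coordinates in both tables. Another 3 count columns match no sample and were not used. Levels are CPM of the library total, and exon lengths are from GENCODE M21.

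Differences were tested by edgeR 4.0.16 under R 4.3.3 (TMM factors, filterByExpr, robust quasi-likelihood F test, 2-sided, group as the single term) with Benjamini-Hochberg adjustment over all genes tested and a threshold of 0.05. Every adjusted p is from this test unless an alternative is named. The SE is the absolute log2 fold change over the square root of F. The 9 reporter IM libraries shared one fit, as did the 9 AM libraries. The test was also run on simulated data in which far fewer genes changed than were called here. That run cannot check the scaling factors at the extent of change seen here. Alternatives were RLE factors, library totals, DESeq2 1.42.0, no filter on low counts, one fit of all libraries, a fit of the 2 groups only, a replicate block, genes with the same coordinates, and leaving out each library. Named besides the 7 members are the gate and reporter genes, some of the 2 genes of smallest p per list and comparison, and the genes of highest correlation. The members and lists were chosen with earlier results of these data known. Reads carry no molecular identifiers.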

Additional observations from a re-analysis of the deposited data

Results flagged for a closer look

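The effect of bleomycin on 6 Fc receptor genes differed between wild-type IMs at day 7 and EGFP+ AMs at day 14, by a test of the difference itself in one edgeR fit of all libraries. On the log2 scale, the effect in IMs minus that in AMs was 1.13 for Fcgr1, -1.54 for Fcgr4, -0.74 for Fcer1g, -0.52 for Fcgr2b, 0.52 for Fcgrt and 2.77 for Fcrlb. The value of Fcrlb rests on 2, 3 and 6 counts in PBS-treated IMs and ranged from 2.50 to 3.41 without single libraries. The call of Fcgr2b was lost with library totals as the scaling (-0.26, edgeR adjusted p = 0.0717) and without AM day 14 replicate 3 (-0.33, edgeR adjusted p = 0.0537). For Fcgr4 all 3 IM libraries after bleomycin lay below all PBS libraries, and all 3 AM libraries of day 14 lay above all PBS libraries. Day, genotype, sort and count table differ with the gate in this contrast and cannot be told apart from it.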

How the results depend on the processing

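Over 9 comparisons, the fold change of a member was counted once per alternative. Alternatives other than leaving out a library left 451 such values on the same side of the threshold, with 10 no longer past it and 8 newly past it. No called fold change turned its sign, but 13 values of 7 fold changes near 0 that were not past the test did (-0.08 to 0.05): Fcer1g and Fcgrt in wild-type IMs, Fcer1g, Fcgr2b and Fcgrt in EGFP+ over EGFP- IMs, Fcgr4 in AMs of day 30 over day 14 and Fcer1g in day 14 IMs over AMs. In EGFP+ over EGFP- IMs, 1 member was higher with library totals, with all libraries in one fit and with the 2 groups only, and the last called 4064 genes higher against 2571. With library totals, genes called higher were 2063 against 3781 in EGFP+ IMs of day 14 over day 7 and 2641 against 4008 in AMs of day 14 over PBS. There the median of all genes moved by -0.22 and -0.20. In the difference of bleomycin effects, library totals gave 5650 genes higher against 3598 and 1878 lower against 2916. In day 14 IMs over AMs, all libraries in one fit gave 2937 genes higher against 1454, 2969 lower against 1378, and 4 members higher against 2. Leaving out single libraries left 392 values of the members on the same side of the threshold, with 18 no longer past it and 9 newly past it. Another 1 value passed it with the other sign. Among the 392, 12 values of 5 fold changes near 0 that were not past the test turned sign (-0.06 to 0.12). The fits that left out 1 library gave 1670 to 2107 genes higher and 1610 to 2114 lower in EGFP+ over EGFP- IMs. In day 14 IMs over AMs they gave 972 to 1797 genes higher and 868 to 1529 lower. Members higher were then 1 to 3 and members lower 1 to 2. Members lower were 0 to 1 in day 14 over day 7 IMs and 2 to 3 in the difference of effects, and members higher were 4 to 6 in AMs of day 30 over PBS and 0 to 1 over day 14. The fold change of Fcgr4 in AMs, day 30 over day 14, ranged from -0.18 (without day 14 replicate 3) to 0.28 (without day 14 replicate 1). With the replicate block, the call of Fcgr4 in EGFP+ IMs of day 14 over day 7 was lost (log2 fold change 0.39, adjusted p = 0.0527), and no other call of a member changed. The labels give no pairing beyond a shared number, and in no comparison were all same-number correlations over 0.1 (the highest were 0.177, 0.0868 and 0.121, in day 14 IMs over AMs). In 3 of 8 comparisons (day 14 IMs over AMs, AMs of day 14 over PBS, and PBS-treated IMs over AMs) every library correlated best with its own number, a hint from the data and not from the design. List counts across tables used genes with the same coordinates, a choice made after the data were seen. Summed marker levels took in all listed genes, so across tables they may also carry differences in gene models.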

Other observations

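Of 21 shared genes within the chromosome 1 stretch from Fcrlb to Fcer1g, Fcrla, a B cell relative of Fcrlb that lies next to it, had group means of 14.1 CPM in bleomycin-treated wild-type IMs and 37.2 CPM in PBS-treated ones, opposite to Fcrlb. Sdhc, a subunit gene of a mitochondrial enzyme between Fcgr3 and Fcer1g, had 83.8 CPM after bleomycin and 36.4 CPM after PBS. In AMs Sdhc averaged 90.9 CPM (PBS), 122 CPM (day 14) and 119.5 CPM (day 30), and Fcrla averaged 6.60 CPM (PBS), 1.26 CPM (day 14) and 4.44 CPM (day 30). These neighbours are given as values without a test.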
